A study of Homo sapiens with 4 samples.

Results

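Genes of glucose use, of the response to low oxygen and of the control of mTORC1 were described in K562 cells treated with TRIAC. They are *SLC2A3*, *PKLR*, *VEGFA*, *NDRG1* and *DDIT4*, which are 5 of the 143 genes in the authors' deposited table. They were chosen by name from that table with their values already known, so their change with TRIAC is a description and no test of it was made. K562 is an established human erythroleukemia cell line, and its cells can be driven towards hemoglobin production with hemin. TRIAC (3,3′,5-triiodothyroacetic acid) is a metabolite of thyroid hormone that binds thyroid hormone receptors. The DMSO group, 2 libraries, received 10 µM hemin and the solvent DMSO. The TRIAC group, also 2 libraries, received 10 µM hemin and 20 µM TRIAC, and both were incubated for 48 h. As a model this is a single leukemia line, and the sources used here do not say if the 2 libraries in each group represent distinct cultures.

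Glucose enters cells through membrane transporters of the SLC2A (GLUT) family and is broken down to pyruvate by glycolysis, which is the only source of ATP in mature red cells. When oxygen is short, the transcription factor HIF escapes degradation and raises genes for glucose uptake, glycolysis and blood vessel growth. The kinase complex mTORC1 promotes growth when nutrients, energy and oxygen suffice, and *DDIT4* (also called REDD1) is a stress-induced brake on it. The same brake and *VEGFA* are also targets of ATF4, the transcription factor of the amino acid and endoplasmic reticulum stress response.

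For each gene the table gives 1 expression value per group, named here as the authors' value, and a length. Values per library were not analysed here. Therefore no value below has an SD or a confidence interval, and no difference could be set against the spread between replicates. The depth of the libraries is unknown. The unit is not given. Equal low values stand beside unequal lengths in 4 pairs of genes (2.49 for *AHSP* with 567 bases and for *C17orf99* with 1090 bases), so the authors' values were taken as not scaled to length. Levels of different genes were compared after division by the listed length (value per kilobase). The table holds only genes that passed the authors' own comparison, and a gene without a row was not analysed here. RNA was taken from whole cultures, in which fewer cells of a kind and less RNA per cell cannot be told apart.

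*SLC2A3* encodes GLUT3, a glucose transporter of high affinity. Its authors' value was 1748.52 in the DMSO group and 442.63 in the TRIAC group, which is 3.95-fold lower (log2 ratio -1.98). *SLC2A3* (NCBI Gene 6515) lies on the minus strand of chromosome 12 of GRCh38, and its GENCODE 44 canonical transcript runs from 7919230 to 7936187 in 10 exons. Its value is uncertain as a measure of this gene alone. Of the 50-base windows of that transcript, 23.5% also lie in transcripts of *SLC2A14*, a close paralog that encodes GLUT14. *SLC2A14* has no row and was not analysed here.

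*PKLR* encodes the pyruvate kinase of red cells and liver, which makes pyruvate and ATP in the last step of glycolysis. It was the only one of the 5 genes with a higher value in the TRIAC group. The authors' value went from 488.50 to 2449.63, a gain of 1961, which is 5.01-fold (log2 ratio 2.33). *PKLR* (NCBI Gene 5313) lies on the minus strand of chromosome 1, and its canonical transcript, PKLR-201, runs from 155289293 to 155301438 in 11 exons with a coding sequence of 574 residues. The exons share 556 bases, 18.2% of that transcript, with *HCN3* on the opposite strand. The counting is not stated to use strand, so reads of *PKLR* and *HCN3* cannot be told apart there, and *HCN3* has no row. Other erythroid genes were also higher. The 9 erythroid markers listed were *HBG2*, *HBE1*, *HBZ*, *HBA1*, *HBA2*, *ALAS2*, *KLF1*, *GATA1* and *TFRC*. Of these, 7 are in the table, each with a higher value in the TRIAC group, beside 61 of all 143 genes. Their summed value, not divided by length, went from 38514 to 180275, of which *HBG2* alone had 25809 and 114251. The sum thus describes mainly *HBG2*. The 7 markers with a row all passed the authors' comparison, so nothing about a lineage is read from their count. The part that the shift of these markers has in the value of *PKLR* was not tested.

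The gene uses 2 start sites, an upstream site for the red cell form and a downstream site for the liver form. RefSeq lists both, and the upstream one is the start of PKLR-201. The 250 bases before it are shown because a GATA site, the kind of site bound by the erythroid factor GATA1, lies close to the start. They occupy chr1:155301439-155301688 of GRCh38.p14, minus strand, written 5′ to 3′ with the matches on either strand to AGATAA or TGATAA (the GATA site) and to ACGTG or GCGTG (the core that HIF binds) in capitals.
PKLR upstream promoter: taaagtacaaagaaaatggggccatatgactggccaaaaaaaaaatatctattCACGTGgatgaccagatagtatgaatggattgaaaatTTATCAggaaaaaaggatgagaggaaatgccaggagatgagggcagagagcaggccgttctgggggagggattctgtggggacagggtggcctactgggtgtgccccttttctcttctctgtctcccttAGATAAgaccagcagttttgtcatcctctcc

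AGATAA lies from -31 to -26 and TGATAA, on the opposite strand, from -160 to -155, counted with 0 at the start site. At -197 to -192 the promoter holds CACGTG, the E-box, which reads the same on both strands and therefore contains ACGTG on each. Of 35116 RefSeq promoters of the same 300 bases (250 before and 50 after the start), 16.3% hold AGATAA or TGATAA and 7.26% hold CACGTG. At least 1 GATA site lies in 11.5% of 104 promoters of genes lower with TRIAC and in 26.3% of 57 promoters of genes higher with TRIAC, *PKLR* among the latter. Here and below the unit is the promoter, and a gene can have several, as *PKLR* has, or none. The downstream promoter of *PKLR* holds none of the 4 capitalised motifs in this window. The values do not tell which start site was used.

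*VEGFA* encodes a secreted growth factor for blood vessels and is a well-known HIF target. Its authors' value was 2737.35 in the DMSO group and 853.21 in the TRIAC group, which is 3.21-fold lower (log2 ratio -1.68). This was the smallest of the 5 changes by fold. By the drop in value *VEGFA* ranks 14 among the 82 lower genes, before *SLC2A3* (17) and *NDRG1* (21). *VEGFA* (NCBI Gene 7422) lies on the plus strand of chromosome 6, from 43770211 to 43786487 in 8 exons by its canonical transcript. That transcript is 3609 bases long against a listed length of 2932, so its value per kilobase depends on the transcript taken as its length. Its exons share 188 bases, 5.21% of that transcript, with an annotated lncRNA on the opposite strand, and without strand their reads cannot be told apart there.

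*NDRG1* encodes a cytoplasmic protein of the stress and low-oxygen response. Its authors' value was 1269.80 in the DMSO group and 240.96 in the TRIAC group, which is 5.27-fold lower (log2 ratio -2.40). *NDRG1* (NCBI Gene 10397) lies on the minus strand of chromosome 8, from 133237175 to 133297252 in 16 exons by its canonical transcript. An annotated lncRNA on the same strand shares 24.9% of the bases of these exons, so the value may hold reads of both. Of the 4 *NDRG* genes, *NDRG2* is the other with a row, and it was higher with TRIAC, with 230.43 against 805.37 (3.50-fold). The pair thus had opposite directions. Per kilobase, *NDRG1* had 406 and *NDRG2* 108 in the DMSO group, and *NDRG1* had 77.0 and *NDRG2* 379 in the TRIAC group.

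*DDIT4* had the highest value of the 5 genes in the DMSO group and the largest change. Its authors' value was 5427.92 in the DMSO group and 257.58 in the TRIAC group, which is 21.1-fold lower (log2 ratio -4.40). By the drop in value it ranks 3 among the 82 lower genes. *DDIT4* (NCBI Gene 54541) lies on the plus strand of chromosome 10, from 72273924 to 72276036 in 3 exons by its canonical transcript, which encodes 232 residues. None of its 1695 windows of 50 bases lies in a transcript of another gene, and no exon of another gene overlaps it.

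The promoter of *DDIT4* is shown because *DDIT4* had the largest change of the 5 genes and responds to low oxygen. It covers chr10:72273674-72273923 of GRCh38.p14, plus strand, with the matches to the HIF core motif, ACGTG or GCGTG, in capitals. AGATAA and TGATAA have no match in it.
DDIT4 promoter: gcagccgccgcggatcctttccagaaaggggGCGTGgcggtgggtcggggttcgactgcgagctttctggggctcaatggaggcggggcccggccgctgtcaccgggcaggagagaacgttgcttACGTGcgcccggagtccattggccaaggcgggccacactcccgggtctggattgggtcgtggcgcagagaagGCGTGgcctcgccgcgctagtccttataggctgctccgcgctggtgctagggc

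ACGTG lies from -125 to -121 and GCGTG from -219 to -215 and from -53 to -49. A further GCGTG lies after the start, from 25 to 29. The window of 300 bases thus holds 4 matches, and 4.40% of the 35116 promoters hold as many or more, counting each strand. At least 1 match is common, with 48.4% of all promoters. It occurs in 55.8% of 104 promoters of genes lower with TRIAC and in 45.6% of 57 promoters of genes higher with TRIAC. The bases before the start of *DDIT4* are 68.8% G or C, against a median of 58.0% over all promoters. The motif of ATF4 with a CEBP factor, TGATGCAA, and the core element of thyroid hormone receptors, AGGTCA, have no match in the promoters of *DDIT4* or *PKLR*. The first occurs in 0.866% of all promoters, in 6.73% of those of lower genes and in 0 of the 57 of higher genes. The second occurs in 13.8% of all, 17.3% of those of lower genes and 7.02% of those of higher genes. A match is a match of letters and not a bound site. Promoter sequences of *SLC2A3*, *VEGFA* and *NDRG1* are not shown.

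Set side by side per kilobase, the order of the 5 genes differed between the groups. In the DMSO group *DDIT4* had 3098 per kilobase, *VEGFA* 934, *SLC2A3* 444, *NDRG1* 406 and *PKLR* 160. In the TRIAC group *PKLR* had 802, *VEGFA* 291, *DDIT4* 147, *SLC2A3* 112 and *NDRG1* 77.0. *PKLR* went from the lowest to the highest place and *DDIT4* from the highest to the middle. Some neighbours in these orders lie close, as *SLC2A3* is 1.09 times *NDRG1* in the DMSO group, and without values per library no neighbours can be said to differ beyond their spread. Of the summed values per kilobase of the 5 genes, *DDIT4* made up 61.4% in the DMSO group and 10.3% in the TRIAC group, and *PKLR* made up 3.17% and 56.1%. The 4 lower genes lay 7.63-fold apart in the DMSO group and 3.78-fold apart in the TRIAC group.

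**Figure D1:**
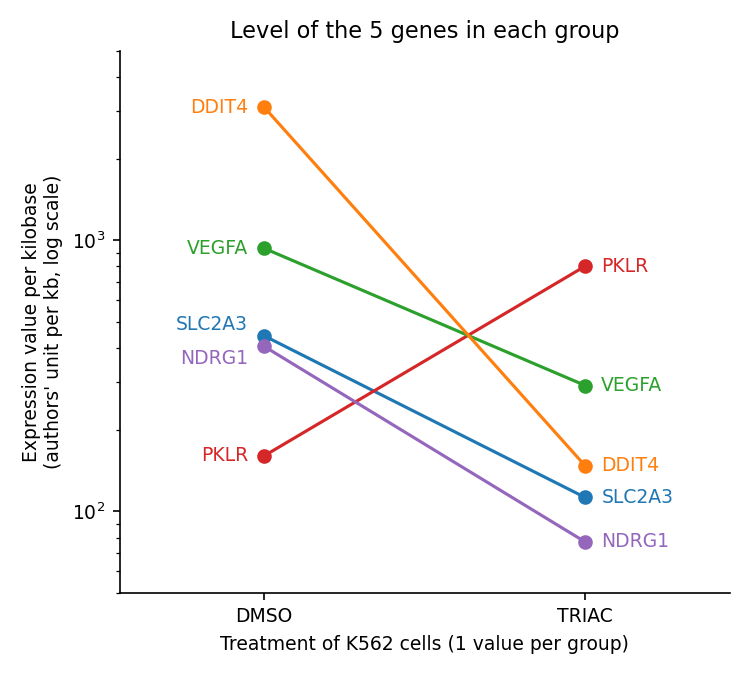
Level of the 5 genes in DMSO-treated and TRIAC-treated K562 cells (horizontal axis), as the authors' value per kilobase of listed length (vertical axis, log scale), with 1 value per group and therefore without error bars. Each line is a gene; *PKLR* goes up from 160 to 802 and the other 4 go down, *DDIT4* from 3098 to 147.

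Between the 2 genes of glucose use the ratio turned. *SLC2A3* had 2.77 times the level of *PKLR* per kilobase in the DMSO group, and *PKLR* had 7.14 times the level of *SLC2A3* in the TRIAC group. A transporter at the entry of glucose and an enzyme at the end of glycolysis thus moved in opposite directions in these libraries. *DDIT4* had 3.32 times the level of *VEGFA* in the DMSO group, and *VEGFA* had 1.98 times the level of *DDIT4* in the TRIAC group.

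Of the 5 genes 4 were lower with TRIAC, beside 82 of all 143 genes, which is 57.3%. At least 4-fold lower were 2 of the 5, *NDRG1* and *DDIT4*, beside 43.6% of the 140 genes that have no value of 0. At least 4-fold higher was 1, *PKLR*, beside 39.3%. *SLC2A3*, at 3.95-fold, lies just short of this fold. Since the choice of the genes used the same contrast, nothing is read from these counts. Among the 80 lower genes with a ratio, the median fold was 5.99 and the range 2.73 to 86.5. *DDIT4* ranks 10 by fold, *NDRG1* 47, *SLC2A3* 62 and *VEGFA* 74, so *DDIT4* alone of the 5 stands above that median. *PKLR* ranks 45 of the 60 higher genes, whose median fold was 7.42. In the DMSO group 78.3% to 95.8% of the 143 genes had a lower value per kilobase than *NDRG1*, *SLC2A3*, *VEGFA* and *DDIT4*. For *PKLR* this share was 63.6%. In the TRIAC group the shares were 53.1% for *NDRG1*, 61.5% for *SLC2A3*, 65.7% for *DDIT4*, 79.0% for *VEGFA* and 90.2% for *PKLR*. Genes passed by their difference between the groups, so a lower gene tends to rank high in the DMSO group. Nothing is read from these shares.

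**Figure D2:**
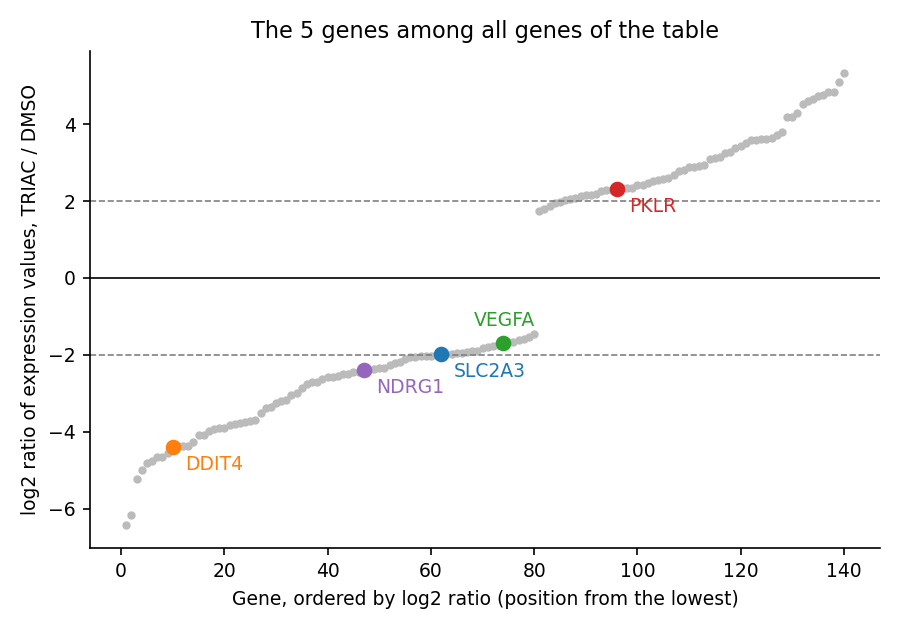
Log2 ratio of the authors' values, TRIAC over DMSO (vertical axis), for the 140 genes with a ratio, ordered from the lowest (horizontal axis). Dashed lines mark 4-fold; *DDIT4* lies at -4.40, *NDRG1*, *SLC2A3* and *VEGFA* between -2.40 and -1.68, and *PKLR* at 2.33.

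Of 44 genes for glucose transporters and glycolysis, 2 have a row, *SLC2A3* (lower) and *PKLR* (higher), and the other 42 were not analysed here. Among these are *SLC2A1*, the transporter GLUT1, and *PKM*, the other pyruvate kinase gene. None of 31 genes of side pathways of glucose (pentose phosphate pathway, glycogen, gluconeogenesis and pyruvate entry into mitochondria) has a row. Rows are missing for genes that did not pass as well as for any left out, so these counts do not show that glycolysis as a whole was unaltered.

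Of 41 genes of the hypoxia response, 5 have a row and all 5 were lower with TRIAC, beside 57.3% lower over all rows. Their median log2 ratio was -3.17, against -1.82 over all rows and -2.58 over the lower rows alone. Besides *DDIT4*, *NDRG1* and *VEGFA* they are *STC2*, a secreted glycoprotein, with 632.24 against 60.91 (10.4-fold lower), and *TF*, the iron carrier transferrin, with 194.61 against 21.57 (9.02-fold lower). By fold *DDIT4* ranks 1, *NDRG1* 4 and *VEGFA* 5 among these. Those 3 genes were chosen with their values known, and the list was written with earlier results known. Nothing is therefore read from the count or the median. The HIF subunits *HIF1A* and *EPAS1*, the glycolytic HIF targets *LDHA* and *PGK1* and the classical marker *CA9* have no row. Of 10 VEGF ligands and receptors, *VEGFA* alone has a row.

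Of 45 inputs of mTORC1, 2 have a row, *DDIT4* and *TRIB3*, a pseudokinase that binds AKT, with 2613.51 against 547.45 (4.77-fold lower). Both are inhibitors upstream of the complex, and both were lower, beside 57.3% lower over all rows. Other inhibitors, such as *TSC1*, *TSC2*, *SESN2* and *DEPTOR*, have no row. Of 18 genes downstream of mTORC1, *HMGCS1*, an enzyme of cholesterol synthesis, has a row and was higher, with 884.41 against 7842.36 (8.87-fold). *DDIT4* was chosen with its value known, and both lists were written with earlier results known. Nothing is therefore read from these directions. The table holds mRNA levels and no measure of mTORC1 activity.

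Of 30 ATF4 targets, 17 have a row and all 17 were lower, beside 57.3% lower over all rows. Their median log2 ratio was -3.05, against -2.58 over the lower rows alone, and their folds ran from 3.21 to 32.2. Both *DDIT4* and *VEGFA* belong to them. *TRIB3* does too, so both mTORC1 inputs with a row are also in the ATF4 list. *DDIT4* had the highest level per kilobase of the 17 in the DMSO group and ranks 3 by fold, after *NUPR1* and *ADM2*, while *VEGFA* had the smallest fold of the 17. The hypoxia and ATF4 lists share 3 genes with a row, *DDIT4*, *VEGFA* and *STC2*, which is 3 of the 5 hypoxia rows and 17.6% of the ATF4 rows. *NDRG1* is in the hypoxia list only. The lists were chosen with earlier results of these data known, and all rows passed the authors' comparison, so the shared direction is given as a count.

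**Figure D3:**
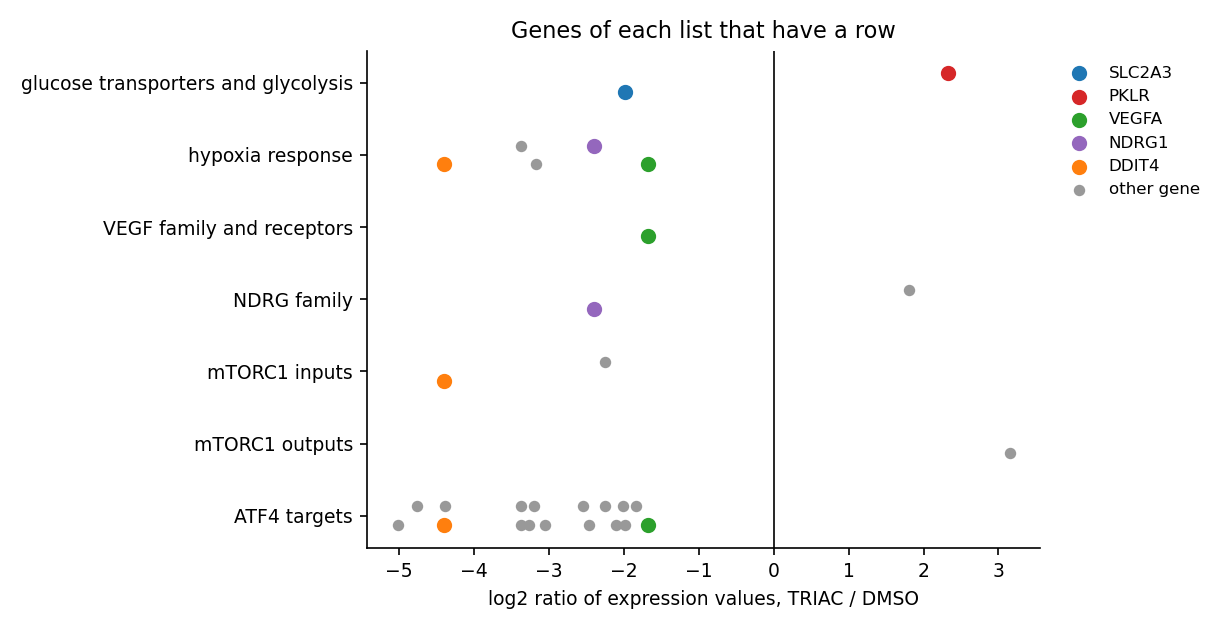
Log2 ratio of the authors' values, TRIAC over DMSO (horizontal axis), for the genes with a row in each list (vertical axis); dots are genes, set slightly apart in height, and a gene may stand in several lists. All 5 genes of the hypoxia response and all 17 ATF4 targets lie below 0, whereas *PKLR*, *NDRG2* and *HMGCS1* lie above it.

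The annotation that the authors deposited beside the values gives another grouping, in which direction was mixed for hypoxia and glycolysis. A biological process with hypoxia in its name is given for 8 genes considered here. Of these, 5 were lower, which is near the 57.3% lower over all rows. *VEGFA*, *NDRG1*, *DDIT4*, *STC2* and *PLAU* were lower, and *PKLR*, *ALAS2* and *AQP1* were higher. *ALAS2*, the erythroid enzyme that starts heme synthesis, had 19.79 against 359.98 (18.2-fold), and *AQP1*, the water channel of red cells, 26.48 against 157.55 (5.95-fold). The 3 higher genes are all known from red cells. A process with glycolysis in its name is given for *PKLR*, *DDIT4* and *IER3*, an early stress gene with 374.44 against 91.19 (4.11-fold lower). Glucose is named in a process of 6 genes considered here. Of these, 5 were lower, *SLC2A3* among them, and *PKLR* was higher, beside 57.3% lower over all rows. Nothing is read from this count. The pathway of mTOR signaling is given for *VEGFA* and *DDIT4*, and that of HIF-1 signaling for *VEGFA* and *TF*. A process with TOR signaling in its name is given for *DDIT4* and *GPAT3*. All genes of these last groups were lower.

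The rows most like each gene were taken as those nearest in the plane of both log2 levels per kilobase, over 140 genes and 2 values each. For *DDIT4* they were *ASNS* (distance 0.94), *GDF15* (1.12) and *PSAT1* (1.33), all 3 in the ATF4 list, which holds 20.7% of the lower genes. For *VEGFA* they were *VIM-AS1* (0.28), *TRIB3* (0.42) and *CEBPB* (0.45), and *TRIB3* and *CEBPB* are also in that list. For *SLC2A3* they were *CARS* (0.23), *CD68* (0.44) and *NDRG1* (0.56). *NDRG1* lay nearest to *GPAT3* (0.27), *GMFG* (0.28) and *HLA-E* (0.37), and *PKLR* to *UCA1* (0.29), *S100A4* (0.69) and *LBH* (0.73). *DDIT4* had the most distant neighbours of the 5. No neighbour of *SLC2A3*, *NDRG1* or *PKLR* is in the ATF4 list. Nearness rests on the same values by which the genes were known when chosen, so nothing is read from these memberships. In the order of log2 ratio alone, *PHGDH*, the first enzyme of serine synthesis, stands just above *DDIT4* (-4.38) and *FAM107B* just below (-4.55). *SLC2A3* stands between *MTHFD2* (-2.01) and *HERPUD1* (-1.98), *VEGFA* between *NFKB2* (-1.76) and *SARS* (-1.67), *NDRG1* between *SLC1A4* (-2.45) and *ZNF697* (-2.39), and *PKLR* between *DBP* (2.29) and *COQ10A* (2.34).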

How the data were processed

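RNA-seq was performed on 4 libraries of K562 cells, 2 per group. The submitters' processing notes list edgeR, RSEM, Bowtie2, FastQC, Trimmomatic and CASAVA 1.8 and the build GRCh38 with neither order nor settings, and the design text names BWA, TopHat and Cufflinks. The authors deposited 1 expression signal value per group, in a unit that no source names, and a length in bases. Deposited columns of their own comparison (log2 fold change, p-value, adjusted p-value and direction) were not used, except to check that every row has an adjusted p under 0.05. No sample column was left unmatched. The design foresaw this case, in which no test is run.

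From the authors' values, ratios, log2 ratios without a pseudocount, values per kilobase and ranks were computed. Genes with 0 in a group (3 of 143) have no ratio. The 8 gene lists hold 223 entries, and 2 further genes of the lists are not reported here. Named genes are the 5 genes, list genes with a row, the 3 nearest rows and the neighbours in order; genes of the annotation terms were chosen after their values were seen. The members and lists were chosen with earlier results of these data known. Markers of other lineages were also listed. Alternatives were pseudocounts of 1 and 10, minimum means of 10 and 100, folds of 2 and 8 and undivided values; the GENCODE transcript length was added after the data were examined. All 143 identifiers matched RefSeq genes (GRCh38.p14), with another symbol for 8. Promoters were found for 2 of the 5 genes and come from RefSeq. Transcripts of GENCODE 44 were compared in windows of 50 bases, set without knowledge of the read length. Calculations were made with Python 3.11.15, pandas 2.3.3, numpy 2.4.6 and matplotlib 3.10.9 after a test on simulated data.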

Additional observations from a re-analysis of the deposited data

How the results depend on the processing

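The log2 ratios of the 5 genes kept their direction with pseudocounts of 1 and 10, and the largest shift was from -4.40 to -4.35 for *DDIT4*. Without division by length, *SLC2A3* took place 3 and *DDIT4* place 4 of the 5 in the TRIAC group, because *DDIT4* has the shortest listed length. With GENCODE transcript lengths the order was the same in both groups. At least 8-fold, 33 genes were lower and 27 higher, with 1 of the 5 genes lower (*DDIT4*) and 0 higher, and at least 2-fold 4 of the 5 were lower; the threshold itself makes these counts differ. With a mean of at least 100, 104 genes were left and 40 were at least 4-fold lower. Leaving out a library was not run, and no depth or interval could be given, because the table has 1 value per group. No paired analysis was possible because the deposited table used here has 1 value per group and none per library.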

Other observations

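*NDUFA4L2*, a mitochondrial protein known as a HIF target and outside the hypoxia list, was chosen after its value was seen. It had 76.77 in the DMSO group and 5.92 in the TRIAC group, which is 13.0-fold lower. *ALDH2*, which the deposited annotation places in the pathway of glycolysis beside *PKLR*, had 272.28 against 20.01 (13.6-fold lower).

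The deposited annotation names angiogenesis in a process of 9 genes considered here, *VEGFA* among them. Of these, 7 were lower and 2 higher with TRIAC, beside 57.3% lower over all rows. The higher genes were *GDF2*, a ligand of the BMP family, with 21.92 against 187.59 (8.56-fold), and *AQP1*. Of the lower genes, *UNC5B*, a netrin receptor, had 305.56 against 12.18 (25.1-fold lower), and *ADM2*, a peptide hormone, had 285.03 against 10.57 (27.0-fold lower). *VEGFA* had the smallest fold of the 7. All 9 genes were chosen after their values were seen, so nothing is read from their count. None of 4 endothelial markers has a row. Of the other marker lists, 1 of 6 megakaryocyte markers was higher (*TUBB1*), and 2 of 7 myeloid markers (*CD68* and *SPI1*) and 1 of 5 lymphoid markers (*CD3D*) were lower. The other markers of these lists have no row. With so few rows, all from genes that passed the authors' comparison, nothing about a lineage is read from them.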
